A study of Mus musculus with 4 samples.

Results

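Lymphatic endothelial nuclei of the mouse heart were picked out of 4 single-nucleus RNA libraries by their raw counts of unique molecular identifiers (UMIs, each standing for 1 captured RNA molecule). A nucleus was kept if it had at least 500 UMIs, at least 300 genes and at most 10% mitochondrial UMIs, and if the cardiomyocyte transcripts Ttn, Ryr2 and Myh6 together made up under 2% of its UMIs. It was called lymphatic if it held at least 2 of 6 genes, namely Mmrn1, Reln, Prox1, Ccl21a, Flt4 and Pard6g, with Mmrn1 or Reln among them. This gave 336 lymphatic nuclei among 28128 nuclei that passed the quality limits and 28216 that were deposited: 103 in Q150X 3dpMI, 105 in WT 3dpMI, 90 in Q150X homeostasis and 38 in WT homeostasis. The nuclei were thus selected on the measured UMIs of these 6 genes, whose levels describe the choice and are no finding.

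The libraries came from whole mouse hearts, with nuclei of all cell types, and were made with the 10x Chromium 5′ chemistry. The mutant carries a stop codon in Vegfa at residue 150 (Q150X), introduced by CRISPR/Cas9 to mimic a human stop-gained variant of VEGFA. The titles mark the mutant libraries "ho" and the design text writes the allele as Q150X/Q150, so whether both copies carry it is not settled by the labels. The 4 groups were Q150X hearts 3 days after myocardial infarction (3dpMI), wild-type (WT) hearts 3 days after infarction, Q150X hearts in homeostasis and WT hearts in homeostasis. Each group is 1 library, while the number, sex and strain of the hearts behind it are not stated in the labels, and the design text gives only that the homeostatic condition was adult; no comparison between groups can therefore be tested and none has a p-value. Intervals below are 95% intervals of counting error only: exact Poisson for levels, exact conditional binomial for ratios and Clopper-Pearson for shares. Genotype, library and heart cannot be told apart.

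Lymphatic endothelial cells line the vessels that return fluid, protein and leukocytes from the heart wall to the blood. Their identity is set and kept by the transcription factor Prox1, and their growth depends on the receptor VEGFR-3 (encoded by Flt4), which binds VEGF-C after CCBE1 and ADAMTS3 have helped to process it, whereas VEGF-A acts mainly through VEGFR-2 (Kdr) on blood vessels. Lymphatic capillaries secrete the chemokine CCL21, which draws dendritic and T cells, and the glycoproteins multimerin-1 (Mmrn1) and reelin (Reln).

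The lymphatic nuclei were deeper in the infarct libraries: their median was 4808 UMIs in Q150X 3dpMI and 4028 in WT 3dpMI, against 914 in Q150X homeostasis and 883.5 in WT homeostasis. Summed over nuclei this made 572870, 531897, 112610 and 46069 UMIs in the same order. Levels are given as UMIs of a gene in 1000000 UMIs of the lymphatic nuclei of a library (CPM). The limit that a count of 0 allows, 3 UMIs, stands for 5.24, 5.64, 26.6 and 65.1 CPM in the same order. Between 39 and 117 barcodes were shared by each pair of libraries, and 0 of them belonged to lymphatic nuclei in both. No doublets were removed; a doublet caller marked 23 of the 103 lymphatic nuclei of Q150X 3dpMI, 10 of 105 in WT 3dpMI, 5 of 90 in Q150X homeostasis and 0 of 38 in WT homeostasis.

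Among the genes that chose the nuclei, Mmrn1 stood at 405 CPM in Q150X 3dpMI, 415 in WT 3dpMI, 1492 in Q150X homeostasis and 1020.2 in WT homeostasis. In other endothelial nuclei, which held at least 3 of 10 vascular endothelial markers and were not called lymphatic, Mmrn1 lay between 1.01 and 2.59 CPM. Reln stood at 1257 CPM in Q150X 3dpMI, 1474 in WT 3dpMI, 2264 in Q150X homeostasis and 1954 in WT homeostasis, against 2.18 to 14.3 CPM in other endothelial nuclei. Prox1 stood at 834 CPM in Q150X 3dpMI, 737 in WT 3dpMI, 861 in Q150X homeostasis and 412 in WT homeostasis, and the VEGF-C receptor gene Flt4 at 709 CPM in Q150X 3dpMI, 686 in WT 3dpMI, 915 in Q150X homeostasis and 868 in WT homeostasis. In other endothelial nuclei Prox1 lay between 4.69 and 10.1 CPM and Flt4 between 45.5 and 85.3 CPM. Pard6g, a cell polarity gene, stood at 424 CPM in Q150X 3dpMI, 370.4 in WT 3dpMI, 719 in Q150X homeostasis and 369 in WT homeostasis. The chemokine gene Ccl21a spread the most, at 332 CPM in Q150X 3dpMI, 269 in WT 3dpMI, 497 in Q150X homeostasis and 65.1 in WT homeostasis, on 190, 143, 56 and 3 UMIs in the same order. Its near-identical copies in the mouse genome can share reads with it, so its level is uncertain. The 250 bases before the annotated start of Mmrn1, Reln and Ccl21a are shown because Mmrn1 and Reln alone could open the rule and Ccl21a varied most between libraries; they come from RefSeq on GRCm38.p6, are written 5′ to 3′ on the gene's strand, and carry CpG dinucleotides in capitals.
Mmrn1: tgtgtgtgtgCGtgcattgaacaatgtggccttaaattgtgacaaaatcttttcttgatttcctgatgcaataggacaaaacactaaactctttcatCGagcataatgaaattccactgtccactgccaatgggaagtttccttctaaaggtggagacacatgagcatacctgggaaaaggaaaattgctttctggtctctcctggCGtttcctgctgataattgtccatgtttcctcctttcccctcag
Reln: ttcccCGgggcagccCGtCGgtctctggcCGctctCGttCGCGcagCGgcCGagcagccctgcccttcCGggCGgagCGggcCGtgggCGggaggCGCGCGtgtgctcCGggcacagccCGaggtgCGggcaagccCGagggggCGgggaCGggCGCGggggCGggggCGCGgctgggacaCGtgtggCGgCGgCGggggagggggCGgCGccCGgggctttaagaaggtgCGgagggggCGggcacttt
Ccl21a: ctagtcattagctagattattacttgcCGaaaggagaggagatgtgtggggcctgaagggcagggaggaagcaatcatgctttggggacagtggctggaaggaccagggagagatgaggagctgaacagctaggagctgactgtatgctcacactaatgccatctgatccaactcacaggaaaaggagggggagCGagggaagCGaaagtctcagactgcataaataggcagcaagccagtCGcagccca
They lie at chr6:60944067-60944316 on the plus strand for Mmrn1, at chr5:22344706-22344955 on the minus strand for Reln and at chr4:42773992-42774241 on the minus strand for Ccl21a. The Reln promoter held 37 CpGs, more than 97.8% of the 32851 mouse promoters of this length, whose median was 6 CpGs (quartiles 2 and 16). Those of Mmrn1 and Ccl21a held 3 and 4. These counts describe the sequence and say nothing about how the genes were regulated in these hearts.

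**Figure D1:**
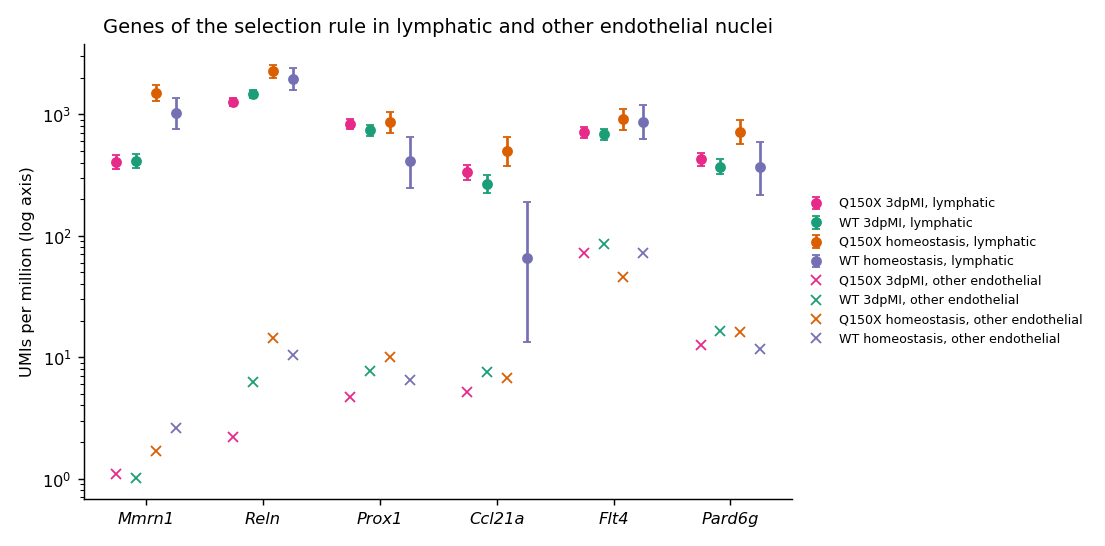
Levels of the 6 genes that chose the nuclei, in CPM on a log axis, in lymphatic nuclei and in other endothelial nuclei of each of the 4 libraries, with 95% Poisson bars for counting error. Every gene lies higher in the lymphatic nuclei because the genes chose them, and Ccl21a in WT homeostasis rests on 3 UMIs.

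The label was set beside 30 other genes known from lymphatic endothelium, none of them in the rule. This list was chosen with earlier results of these data known, so it is no independent check. In the infarct libraries their summed level was higher with each further rule gene a nucleus held. In Q150X 3dpMI it was 2814 CPM in the 20 nuclei with exactly 2 rule genes, 5733 CPM with 3 and 11368 CPM with 6; in WT 3dpMI it was 3127 CPM in 23 nuclei with 2, 6184 CPM with 3 and 9542 CPM with 6. Nuclei just outside the rule, with Mmrn1 or Reln as their 1 rule gene, stood at 2317 CPM in Q150X 3dpMI and 2418 CPM in WT 3dpMI, and other endothelial nuclei at 2426 and 2327 CPM. In the infarct libraries the nuclei at the edge of the rule were thus near other endothelial nuclei on this measure, though not on the vascular endothelial markers given below. In homeostasis the nuclei with exactly 2 rule genes stood higher, at 7656 CPM in Q150X (18 nuclei) and 6622 CPM in WT (14 nuclei), against 2931 and 3764 CPM just outside the rule and 2970 and 2169 CPM in other endothelial nuclei. There the order broke above 2 genes, with 11712, 10288, 11136 and 15338 CPM for 3 to 6 rule genes in Q150X, and 9289 and 8574 CPM for 3 and 4 in WT. Values with at least 3 rule genes, which left 83, 82, 72 and 24 nuclei in the order Q150X 3dpMI, WT 3dpMI, Q150X homeostasis and WT homeostasis, are given beside some results below. A result without such a value may still have changed in those nuclei. The infarct nuclei with exactly 2 rule genes had 1595 CPM of vascular endothelial markers in Q150X 3dpMI and 3860 CPM in WT 3dpMI. Other endothelial nuclei, which these markers picked, had 5870 and 7166 CPM. The nuclei with 2 rule genes held 146076 of 572870 lymphatic UMIs in Q150X 3dpMI and 77712 of 531897 in WT 3dpMI. Their part in the differences between genotypes was not tested beyond the values given.

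**Figure D2:**
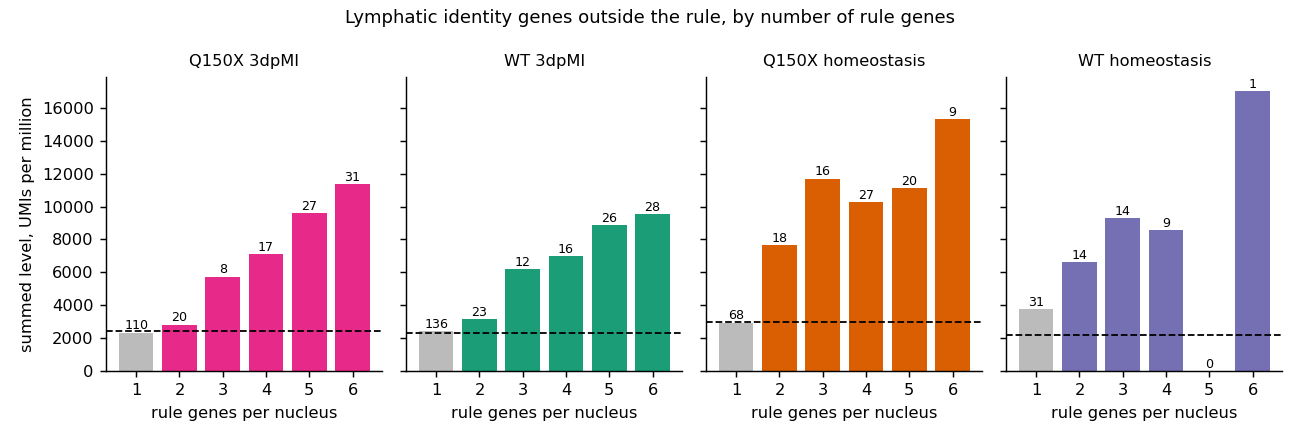
Summed level of 30 lymphatic genes outside the rule, in CPM, against the number of rule genes a nucleus held, for each library; grey bars are nuclei just outside the rule, the dashed line is the level of other endothelial nuclei, and numbers count nuclei. In the infarct libraries the nuclei with 2 rule genes (2814 CPM in Q150X, 3127 CPM in WT) sit close to those just outside the rule, and the level is higher with each further rule gene.

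Markers of other cell types were present in the lymphatic nuclei, and their part in the results below was not tested unless a value is given with it. At least 2 of 16 macrophage or monocyte markers were found in 69 of 103 nuclei in Q150X 3dpMI, 40 of 105 in WT 3dpMI, 7 of 90 in Q150X homeostasis and 6 of 38 in WT homeostasis. Their summed level was 2058, 1017, 1039 and 955 CPM in this order, against 2929, 1623, 699 and 246 CPM in all other nuclei; in WT homeostasis 11 of the 16, among them C1qa, Lyz2 and Cd68, were at 0. At least 2 of 12 fibroblast markers were found in 98 of 103, 82 of 105, 20 of 90 and 13 of 38 nuclei, with 3661, 2175, 1687 and 2040 CPM against 5839, 3893, 2501 and 1303 CPM in all other nuclei, and Tcf21 was at 0 in all but Q150X 3dpMI. Pericyte markers, 8 in all, summed to 206, 340.3, 479.5 and 1411 CPM, with Vtn and Colec11 at 0 in all but WT 3dpMI. Cardiomyocyte markers, at least 2 of 15, were found in 72 of 103, 100 of 105, 79 of 90 and 26 of 38 nuclei and summed to 1909.7, 2145, 4946 and 2323 CPM, against 8861, 23820, 33197 and 51954 CPM in all other nuclei. At least 2 of 10 vascular endothelial markers were found in 95 of 103, 99 of 105, 59 of 90 and 14 of 38 nuclei. The WT homeostasis nuclei were thus the fewest, the shallowest and those with the lowest share holding vascular endothelial markers.

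The share of lymphatic nuclei among all nuclei was 1.27% (1.04 to 1.54) in Q150X 3dpMI, 1.15% (0.940 to 1.39) in WT 3dpMI, 1.39% (1.12 to 1.70) in Q150X homeostasis and 0.867% (0.615 to 1.19) in WT homeostasis. Q150X over WT was 1.11 (0.844 to 1.45) after infarction and 1.60 (1.10 to 2.34) in homeostasis. 3dpMI over homeostasis was 0.913 (0.689 to 1.21) in Q150X and 1.32 (0.915 to 1.91) in WT. The denominator decided the direction in WT: of endothelial nuclei, lymphatic nuclei made up 4.33% in Q150X 3dpMI, 2.92% in WT 3dpMI, 7.71% in Q150X homeostasis and 5.16% in WT homeostasis, so 3dpMI over homeostasis was 0.562 (0.427 to 0.739) in Q150X and 0.567 (0.395 to 0.815) in WT. Q150X over WT on that base was 1.48 (1.13 to 1.93) after infarction and 1.49 in homeostasis. The rule finds more nuclei where nuclei are deeper. With each nucleus thinned to 500 UMIs the rule found 46, 44, 70 and 24 nuclei, or 0.567% of all nuclei in Q150X 3dpMI, 0.481% in WT 3dpMI, 1.08% in Q150X homeostasis and 0.548% in WT homeostasis. Q150X homeostasis then had the highest share and the other 3 lay together, and 3dpMI over homeostasis was 0.524 in Q150X and 0.878 in WT. Among nuclei under the cardiomyocyte limit alone, the shares were 1.35% in Q150X 3dpMI, 1.35% in WT 3dpMI, 1.65% in Q150X homeostasis and 1.44% in WT homeostasis, and Q150X over WT in homeostasis was 1.15 (0.786 to 1.67).

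**Figure D3:**
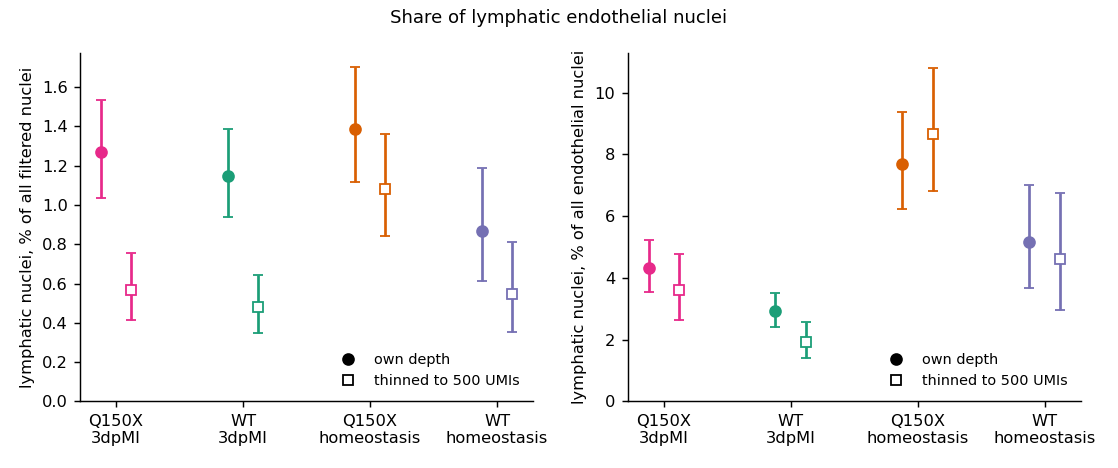
Lymphatic nuclei as a percent of all nuclei and of all endothelial nuclei in each library, with and without thinning to 500 UMIs, with 95% Clopper-Pearson bars for counting error. Of all nuclei the unthinned shares run between 0.867% and 1.39%, and of endothelial nuclei they are lower in both infarct libraries.

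Set against other endothelial nuclei of the same library, the lymphatic nuclei stood higher in most genes of the lymphatic identity list beyond the 6 of the rule. That list was chosen with earlier results of these data known, so these values are a description. Of 14333 genes with enough UMIs, 2% were at least 2-fold higher in lymphatic nuclei in all 4 libraries and 0.998% at least 2-fold lower. Of the 27 measured genes of the lymphatic identity list outside the rule, 20 were at least 2-fold higher in all 4, with a median log2 difference of 2.36, beside 0.19 over all genes. The T-box factor gene Tbx1, needed for lymphatic growth in mice, stood at 127, 71.4, 26.6 and 65.1 CPM in lymphatic nuclei (Q150X 3dpMI, WT 3dpMI, Q150X homeostasis and WT homeostasis), against 0.218, 0.112, 0 and 3.88 CPM in other endothelial nuclei. Lyve1, which encodes a hyaluronan receptor, stood at 178, 158, 302 and 109 CPM against 6.98, 10.5, 29.5 and 7.77 CPM. The COUP-TFII gene Nr2f2, a partner of Prox1, differed less, with 206, 188, 195 and 86.8 CPM against 61.4, 52.4, 79.1 and 36.3 CPM. The 7 measured genes of the list short of 2-fold in at least 1 library were Nrp2, Foxp2, Pkhd1l1, Ackr4, Colec12, Rassf9 and Sox18, among which are the neuropilin that serves as co-receptor of VEGFR-3 and the factor SOX18 that acts upstream of Prox1.

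Of the genes outside the rule, 12 were highest over other endothelial nuclei by their least difference over the 4 libraries: Pld5, Tc2n, Sh3gl3, Susd4, Dtx1, Car10, Il7, Fgf12, Tnfaip8l3, Sgsm1, Prkcz and Reep1. Pld5, a phospholipase D family member, stood at 154 CPM in lymphatic and 0.436 in other endothelial nuclei of Q150X 3dpMI, 282 and 0.447 in WT 3dpMI, 479.5 and 3.37 in Q150X homeostasis, and 239 and 1.29 in WT homeostasis. Il7, the gene of the T cell survival factor interleukin-7, stood at 45.4 CPM in lymphatic and 1.53 in other endothelial nuclei of Q150X 3dpMI, 79 and 1.90 in WT 3dpMI, 133 and 1.68 in Q150X homeostasis, and 109 and 1.29 in WT homeostasis. Dtx1, a ubiquitin ligase of the Notch pathway, stood at 38.4 CPM in lymphatic and 0.654 in other endothelial nuclei of Q150X 3dpMI, 30.1 and 0.782 in WT 3dpMI, 124 and 1.68 in Q150X homeostasis, and 86.8 and 1.29 in WT homeostasis. All 3 were close to absent from other endothelial nuclei in each library. The 8 lowest were Kirrel3, Ccdc85a, Dach1, Flt1, Slc28a2, Jam2, Adgrg1 and Ntf3. Flt1, the gene of the decoy receptor VEGFR-1, stood at 134 CPM in lymphatic and 1014 in other endothelial nuclei of Q150X 3dpMI, 274 and 1353 in WT 3dpMI, 159.8 and 1539.9 in Q150X homeostasis, and 282 and 1854 in WT homeostasis. Flt1 was 1 of the 10 markers that picked the other endothelial nuclei, so its lower level in lymphatic nuclei follows in part from that choice.

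The other lists sorted by role. Of 16 blood capillary genes, 0 were at least 2-fold higher and 10 lower in all 4 libraries, with a median log2 difference of -2.07. Of 25 genes of the VEGF-C and VEGFR-3 pathway 3 were higher (Flt4, which is a rule gene, Pdpn and Itga9, the gene of an integrin needed for valves) and 3 lower (Nrp1, Clec14a and Flt1). Of 21 measured valve and collecting vessel genes 3 were higher (Sema3a, Celsr1 and Itga9). Sema3a, a guidance cue that acts in lymphatic valves, stood at 1042, 1089, 861 and 304 CPM in lymphatic nuclei of Q150X 3dpMI, WT 3dpMI, Q150X homeostasis and WT homeostasis, against 77.7, 49.6, 41.3 and 27.2 CPM in other endothelial nuclei. Of 30 measured chemokine and leukocyte traffic genes 5 were higher, namely Ccl21a, which is a rule gene, Il7, Lyve1, Stab1 and the chemokine scavenger gene Ackr2, and 2 lower, Cxcl12 and Jam2. Of 19 transcription factor genes of lymphatic fate 5 were higher (Prox1, which is a rule gene, Tbx1, Maf, Nr2f2 and Meis2).

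Between genotypes 3 days after infarction, the lymphatic nuclei of Q150X hearts had more transcripts of podoplanin, Tbx1, neurotensin, fibronectin, thrombospondin-1 and immediate early genes, and fewer of blood capillary genes and of Erg, than those of WT hearts. Of 8093 genes whose UMIs in the pair of libraries reached 20, 8.19% were past 2-fold, 5.23% at least 2-fold higher in Q150X and 2.97% at most 0.5-fold; the median over all of them was 0.03 on the log2 scale. Of the rule genes, again as a description, Mmrn1 was 0.975-fold (0.807 to 1.18), Prox1 1.13-fold (0.989 to 1.30), Flt4 1.03-fold (0.894 to 1.19), Ccl21a 1.23-fold (0.988 to 1.54) and Pard6g 1.15-fold (0.945 to 1.39) in Q150X over WT. Reln was 0.853-fold (0.770 to 0.945), and 0.984-fold in nuclei with at least 3 rule genes.

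The lymphatic identity list outside the rule showed no common direction, with 12 of 25 measured genes higher and 13 lower, a median log2 ratio of -0.05, and 1 gene past 2-fold each way. Within it Pdpn, the gene of podoplanin, which binds CLEC-2 on platelets and keeps lymph and blood vessels apart, stood at 223 CPM in Q150X 3dpMI and 120.3 in WT 3dpMI, a ratio of 1.86-fold (1.37 to 2.55). Tbx1 stood at 127 CPM in Q150X 3dpMI and 71.4 in WT 3dpMI, a ratio of 1.78-fold (1.19 to 2.71). Both ratios were as large in nuclei with at least 3 rule genes, 2.15 and 2.07-fold. Nts, the gene of the peptide neurotensin, had 46 UMIs (80.3 CPM) in Q150X 3dpMI and 15 (28.2 CPM) in WT 3dpMI, 2.85-fold (1.56 to 5.49), and 0 UMIs in both homeostasis libraries. Pkhd1l1, a large membrane protein gene, went the other way, with 20.9 CPM in Q150X 3dpMI and 52.6 in WT 3dpMI, 0.398-fold (0.184 to 0.808). Klhl4, a kelch-like protein gene, stood at 145 CPM in Q150X 3dpMI and 184 in WT 3dpMI, 0.786-fold (0.580 to 1.06), with 1 inside its interval.

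In the VEGF-C and VEGFR-3 pathway 3 of 20 measured genes were at least 2-fold higher and 2 at most 0.5-fold. The ligand gene Vegfc stood at 124 CPM in Q150X 3dpMI and 41.4 in WT 3dpMI, 3.0-fold (1.84 to 5.08), Vegfa, the mutated gene, at 75.1 CPM in Q150X 3dpMI and 30.1 in WT 3dpMI, 2.50-fold (1.38 to 4.75), and the VEGF-C cofactor gene Ccbe1 at 113 CPM in Q150X 3dpMI and 30.1 in WT 3dpMI, 3.77-fold (2.16 to 6.98). None of the 3 stood past 2-fold higher in nuclei with at least 3 rule genes, where they were 1.33, 1.06 and 0.399-fold. With called doublets removed Vegfc was 1.49-fold and Vegfa 1.23-fold, while Ccbe1 was 7.82-fold. The 5′ counts do not show whether a Vegfa transcript carries the stop codon. The protease gene Adamts3 was lower, with 7 UMIs in Q150X 3dpMI and 28 in WT 3dpMI, 0.232-fold (0.0856 to 0.544), and 0.228-fold with at least 3 rule genes. Flt1 stood at 134 CPM in Q150X 3dpMI and 274 in WT 3dpMI, 0.490-fold (0.367 to 0.650). It was 0.440-fold with at least 3 rule genes and 0.835-fold without nuclei holding macrophage markers. Of the angiopoietin genes, Angpt2, a context-dependent ligand of TIE2 that acts as an agonist in lymphatic vessels, stood at 166 CPM in Q150X 3dpMI and 92.1 in WT 3dpMI, 1.80-fold (1.26 to 2.60), and was 2.20-fold with at least 3 rule genes. Angpt1 was 2.73-fold (1.55 to 5.05), and 1.23-fold with at least 3.

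All 9 measured blood capillary genes were lower in Q150X 3dpMI than in WT 3dpMI, 4 of them at most 0.5-fold, with a median log2 ratio of -0.74. In other endothelial nuclei all 9 were lower as well, with a median of -0.44. The membrane coat gene Cav1 stood at 127 CPM in Q150X 3dpMI and 261 in WT 3dpMI, 0.488-fold (0.362 to 0.652), and the capillary marker Btnl9 at 38.4 CPM in Q150X 3dpMI and 94 in WT 3dpMI, 0.409-fold (0.236 to 0.687). Sparcl1, a matricellular protein gene, was 0.393-fold (0.227 to 0.658). With at least 3 rule genes Cav1 was 0.729-fold and Btnl9 0.588-fold. Of 20 pan-endothelial genes 17 were lower, 1 of them at most 0.5-fold, and 3 higher, with a median of -0.28 in lymphatic and -0.22 in other endothelial nuclei. The endothelial transcription factor gene Erg stood at 227 CPM in Q150X 3dpMI and 409.9 in WT 3dpMI, 0.554-fold (0.442 to 0.691), and Pecam1, an adhesion molecule gene, was 0.831-fold (0.693 to 0.997). Pecam1 was 1.10-fold with at least 3 rule genes. Mmrn2, a matrix glycoprotein gene of blood vessels, stood at 66.3 CPM in Q150X 3dpMI and 113 in WT 3dpMI, 0.588-fold (0.381 to 0.897).

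Of 16 measured immediate early and heat shock genes 15 were higher in Q150X 3dpMI and 5 at least 2-fold so, with a median log2 ratio of 0.75; in other endothelial nuclei 9 of the 16 were higher and the median was 0.10. The difference between the 2 kinds of nuclei was not tested. Fos had 44 UMIs in Q150X 3dpMI and 9 in WT 3dpMI, 4.54-fold (2.19 to 10.6). Fosb had 41 UMIs in 13 nuclei of Q150X 3dpMI and 2 in 2 nuclei of WT 3dpMI, 19-fold (4.94 to 162). Both encode partners of JUN in the AP-1 factor, and both were at 0 in homeostasis. The phosphatase gene Dusp1 stood at 119 CPM in Q150X 3dpMI and 60.2 in WT 3dpMI, 1.97-fold (1.28 to 3.10). Without nuclei holding macrophage markers, 7 of the genes had enough UMIs and their median was 0.28.

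The genes furthest apart, by the bound of their interval nearest to 1, were, upward in Q150X 3dpMI, Fosb, Tent5a, Il1rapl1, Ctsl, Thbs1 and Gpnmb, and downward F8, Mmp12, Mob3b, Clec1a, Iigp1 and Mlkl. Thbs1, the gene of the matrix protein thrombospondin-1, had 160 UMIs in 49 nuclei of Q150X 3dpMI and 43 in 24 nuclei of WT 3dpMI, 3.45-fold (2.45 to 4.96), and 3.77-fold with at least 3 rule genes. All other nuclei of the libraries stood at 193 and 92.5 CPM. Ctsl, a lysosomal protease gene, had 59 and 10 UMIs, 5.48-fold (2.78 to 12). Gpnmb, a glycoprotein gene of macrophages, had 137 UMIs in 30 nuclei of Q150X 3dpMI and 38 in 4 nuclei of WT 3dpMI, 3.35-fold (2.32 to 4.93), and 16.8-fold with at least 3 rule genes. Without nuclei holding macrophage markers 2 UMIs of Gpnmb were left in Q150X 3dpMI and 0 in WT 3dpMI, too few for a ratio. Gpnmb is itself among the 16 markers used to leave out those nuclei, so its loss follows in part from that choice. Il1rapl1 rested on 5 nuclei in Q150X 3dpMI and was 0.532-fold with at least 3 rule genes.

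F8, the gene of coagulation factor VIII, had 10 UMIs in 8 nuclei of Q150X 3dpMI and 62 in 24 nuclei of WT 3dpMI, 0.150-fold (0.0685 to 0.294). Other endothelial nuclei stood at 18.7 and 21.5 CPM. Clec1a, a C-type lectin gene of endothelium, had 14 and 53 UMIs, 0.245-fold (0.126 to 0.448). Mlkl, the executor of necroptosis, had 17 UMIs in 13 nuclei and 56 in 35, 0.282-fold (0.154 to 0.492). All 3 lay under 0.5-fold also with at least 3 rule genes, at 0.187, 0.182 and 0.314. The interferon-induced GTPase gene Iigp1 was 0.279-fold (0.155 to 0.478), but 1.89-fold without nuclei holding macrophage markers. Mmp12, a macrophage elastase gene, rested on 4 nuclei in WT 3dpMI.

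Further lists showed small or mixed differences 3 days after infarction. Of 29 extracellular matrix and guidance genes 10 were higher and 19 lower, with a median log2 ratio of -0.07 and 0 past 2-fold; Fn1, the fibronectin gene, which is in the valve list, stood at 981 CPM in Q150X 3dpMI and 583 in WT 3dpMI, 1.68-fold (1.46 to 1.94). All other nuclei stood at 794 CPM of Fn1 in Q150X 3dpMI and 420.4 in WT 3dpMI, and fibroblast markers in the lymphatic nuclei at 3661 and 2175 CPM. Col4a2, a basement membrane collagen gene, stood at 705 CPM in Q150X 3dpMI and 966 in WT 3dpMI, 0.730-fold (0.639 to 0.833). Of 19 chemokine and leukocyte traffic genes 10 were higher and 2 past 2-fold. The monocyte chemokine gene Ccl2 had 43 UMIs in Q150X 3dpMI and 13 in WT 3dpMI, 3.07-fold (1.62 to 6.23), and Il7 had 26 and 42, 0.575-fold (0.338 to 0.960). Of 24 interferon response genes 10 were higher and 14 lower, with a median of -0.08, and of 31 inflammatory genes 17 were higher and 14 lower, with a median of 0.10. Of 19 junction genes 5 were higher and 14 lower, with a median of -0.13. The list medians for fatty acid, glycolysis, glucocorticoid, Notch and transcription factor genes lay between -0.11 and 0.17.

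**Figure D4:**
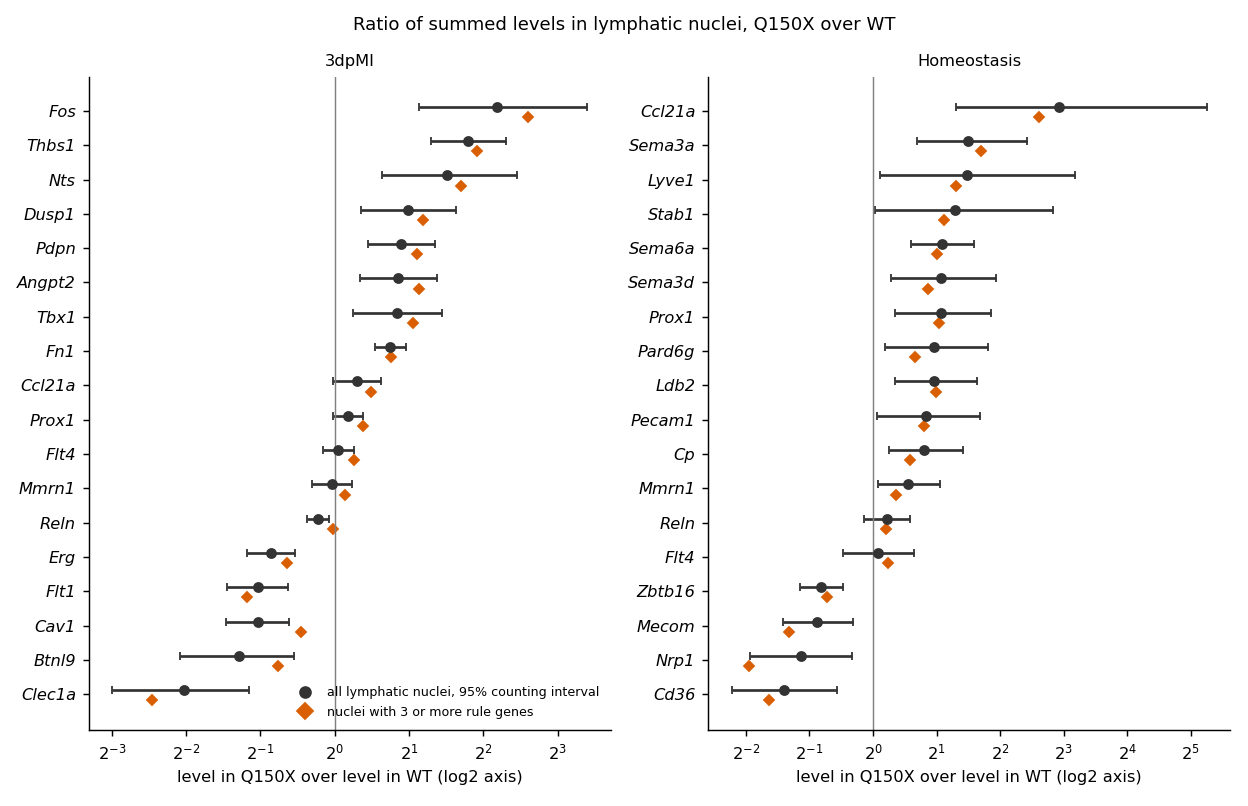
Ratios of summed levels in lymphatic nuclei, Q150X over WT, on a log2 axis, 3 days after infarction and in homeostasis; circles with 95% counting bars are all lymphatic nuclei and diamonds those with at least 3 rule genes. After infarction Pdpn (1.86-fold), Tbx1 (1.78-fold) and Thbs1 (3.45-fold) lie above 1 and Erg (0.554-fold) and Clec1a (0.245-fold) below it, with both kinds of points on the same side of 1.

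In homeostasis, the lymphatic nuclei of Q150X hearts had more transcripts of the semaphorin genes Sema3a, Sema3d and Sema6a and of Lyve1 and Stab1 than those of WT hearts, and fewer of Mecom, Nrp1, Cd36 and Zbtb16. The WT library gave only 38 lymphatic nuclei, so 1807 genes reached 20 UMIs in the pair of libraries. Of these genes 12.5% were past 2-fold, 7.25% at least 2-fold higher in Q150X and 5.26% at most 0.5-fold. The 5 deepest nuclei held 32.2% of the lymphatic UMIs in WT homeostasis and 21.6% in Q150X homeostasis. Differences between single nuclei are not covered by the counting intervals. The rule genes chose the nuclei, so their levels are given as a description: 20 of the 90 Q150X nuclei held 5 of them and 9 held 6, against 0 and 1 of the 38 WT nuclei. Ccl21a had 56 UMIs in 36 of 90 nuclei in Q150X homeostasis and 3 in 3 of 38 nuclei in WT homeostasis, 7.64-fold (2.48 to 38.1). Thinned to 500 UMIs it was detected in 21.1% of the Q150X nuclei and 2.63% of the WT nuclei, against 0.278% and 0% of other endothelial nuclei, where a median nucleus had 811 and 881 UMIs. Prox1 stood at 861 CPM in Q150X homeostasis and 412 in WT homeostasis, 2.09-fold (1.27 to 3.62), and Pard6g was 1.95-fold (1.15 to 3.51). Mmrn1, at 1.46-fold (1.05 to 2.07), Reln, at 1.16-fold (0.908 to 1.49), and Flt4, at 1.05-fold (0.725 to 1.56), differed less.

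Of 18 measured identity genes outside the rule 15 were higher in Q150X homeostasis and 4 at least 2-fold so, with a median log2 ratio of 0.40, beside 0.03 over all genes; in other endothelial nuclei the same list had a median of 0.81. Lyve1 had 34 UMIs in Q150X and 5 in WT homeostasis, 2.78-fold (1.08 to 9.11), and was 1.26-fold without nuclei holding macrophage or fibroblast markers. Stab1, the gene of the scavenger receptor stabilin-1, had 36 and 6, 2.45-fold (1.02 to 7.13). Sema3d stood at 728 CPM in Q150X homeostasis and 347 in WT homeostasis, 2.10-fold (1.22 to 3.84). The ferroxidase gene Cp stood at 1217 CPM in Q150X homeostasis and 695 in WT homeostasis, 1.75-fold (1.18 to 2.66). All 4 stood higher in other endothelial nuclei of the Q150X library as well, Lyve1 3.79-fold, Stab1 2.73-fold, Sema3d 2.18-fold and Cp 2.22-fold. The list's members that were lower were Piezo2, at 0.908-fold (0.590 to 1.42), Tspan18, at 0.713-fold (0.474 to 1.09), and Foxp2, at 0.873-fold (0.459 to 1.73), each with 1 inside its interval.

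Sema3a stood at 861 CPM in Q150X homeostasis and 304 in WT homeostasis, 2.83-fold (1.61 to 5.38), and Sema6a, a transmembrane semaphorin gene, at 1971 CPM in Q150X homeostasis and 933 in WT homeostasis, 2.11-fold (1.52 to 3.0). Of 15 measured pan-endothelial genes 11 were higher in Q150X, 1 at least 2-fold, and 4 lower, 1 at most 0.5-fold, with a median log2 ratio of 0.51 in lymphatic and -0.27 in other endothelial nuclei. Ldb2, a LIM-domain binding factor gene, stood at 1101 CPM in Q150X homeostasis and 564 in WT homeostasis, 1.95-fold (1.27 to 3.10), and Pecam1 at 657 CPM in Q150X homeostasis and 369 in WT homeostasis, 1.78-fold (1.04 to 3.22). The transcription factor gene Mecom went the other way, at 604 CPM in Q150X homeostasis and 1107 in WT homeostasis, 0.545-fold (0.374 to 0.80). Nrp1, a co-receptor gene of blood endothelium, stood at 266 CPM in Q150X homeostasis and 586 in WT homeostasis, 0.455-fold (0.261 to 0.795), and Cd36, the gene of a fatty acid transporter, at 231 CPM in Q150X homeostasis and 608 in WT homeostasis, 0.380-fold (0.214 to 0.672). Without nuclei holding macrophage markers Cd36 was 0.786-fold and Nrp1 0.720-fold, and without those holding macrophage or fibroblast markers Cd36 was 1.24-fold, on 14 UMIs in Q150X and 3 in WT. In other endothelial nuclei Cd36 was 0.419-fold and Nrp1 0.786-fold. Zbtb16, a glucocorticoid-induced factor gene, stood at 1519 CPM in Q150X homeostasis and 2669.9 in WT homeostasis, 0.569-fold (0.448 to 0.723), and in all other nuclei at 2909 and 3799.9 CPM.

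By the bound of the interval nearest to 1, the genes furthest apart in homeostasis were, upward in Q150X, Ccl21a, Hnrnpa2b1, Fxyd6, Rsrp1, Srgap3 and Hjurp, and downward Abcc9, Rgs5, Gphn, Igfbp7, Sdc2 and Scn7a. Ccl21a is a rule gene, so its place describes the choice of nuclei and is no finding, and it rests on 3 UMIs in WT. Fxyd6, an ion pump regulator gene, had 30 UMIs in Q150X and 1 in WT, 12.3-fold (2.04 to 501), and Srgap3, a RAC GTPase-activating gene, had 36 and 2, 7.36-fold (1.90 to 63.1). Without nuclei holding macrophage or fibroblast markers the WT library had 0 UMIs of both and of Hjurp, and the Q150X library 22 of Fxyd6, 19 of Srgap3 and 20 of Hjurp, at least 1.95, 1.68 and 1.77-fold. Hnrnpa2b1, a splicing factor gene, had 22 UMIs in Q150X and 0 in WT homeostasis, where all other nuclei stood at 126 and 112 CPM. Abcc9 and Rgs5 are pericyte genes, and had 5 and 6 UMIs in Q150X against 19 and 18 in WT, where Rgs5 was found in 3 nuclei. The pericyte marker sum was 479.5 CPM in Q150X and 1411 CPM in WT. Scn7a, a sodium channel gene of Schwann cells, had 7 and 17 UMIs. Gphn, the gephyrin gene, stood at 1989 CPM in Q150X homeostasis and 6555 in WT homeostasis, and in all other nuclei at 1819 and 4895 CPM, so its ratio was shared by the whole library.

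Between infarct and homeostasis, the lymphatic identity genes Pkhd1l1, Klhl4 and Cp and the membrane glycoprotein gene Gpm6a stood lower 3 days after infarction in both genotypes, while fibronectin, Egfl7, Unc5b and Stab1 stood higher. In Q150X 26.8% of 6238 genes were past 2-fold, 20.6% at least 2-fold higher after infarction and 6.19% at most 0.5-fold; in WT 25.7% of 5476 were past 2-fold, 17.4% higher and 8.35% lower. The infarct libraries held most of the UMIs, so a gene entered mainly through its infarct level and these counts lean upward; over all genes the median log2 ratio was 0.24 in Q150X and 0.06 in WT. Day, library and depth cannot be told apart here. By the bound nearest to 1 the genes furthest apart in Q150X were, upward after infarction, Fn1, Thbs1, Gpnmb, Rad51b, Sbno2 and Txnrd1, and downward Cyp4b1, Pkhd1l1, Agmo, Wipf3, Gpm6a and Rfx2. Without nuclei holding macrophage markers Gpnmb had 2 UMIs in Q150X 3dpMI and 0 in Q150X homeostasis, too few for a ratio. Gpnmb is itself among those markers, so this loss follows in part from the choice of nuclei. In WT they were, upward, Cmss1, Fn1, Diaph3, Hnrnpa2b1, Cdk8 and Srgap3, and downward Csmd1, Dgkb, Scn7a, C1qtnf7, Lama2 and Plxdc2. Cmss1, for instance, was 12.2-fold in WT lymphatic nuclei, and stood at 16238 CPM in 3dpMI and 1328 CPM in homeostasis in all other WT nuclei, and Cdk8 stood at 2199 and 279 CPM there.

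The rule genes Mmrn1 and Reln are given as a description. Mmrn1 was 0.271-fold (0.222 to 0.333) in Q150X and 0.407-fold (0.296 to 0.571) in WT, 3dpMI over homeostasis, on the levels already given. With at least 3 rule genes it was 0.318-fold and 0.372-fold. Reln was 0.555-fold (0.480 to 0.643) in Q150X and 0.754-fold (0.606 to 0.949) in WT. Pkhd1l1 stood at 20.9 CPM in Q150X 3dpMI, 52.6 in WT 3dpMI, 426 in Q150X homeostasis and 391 in WT homeostasis, so it was 0.0491-fold (0.0238 to 0.0939) in Q150X and 0.135-fold (0.0719 to 0.259) in WT. All other nuclei stood at 9.51, 8.67, 16.6 and 10.1 CPM. Klhl4 stood at 145 CPM in Q150X 3dpMI, 184 in WT 3dpMI, 435 in Q150X homeostasis and 434 in WT homeostasis, 0.333-fold (0.231 to 0.484) in Q150X and 0.424-fold (0.260 to 0.725) in WT. Cp was 0.331-fold (0.267 to 0.413) and 0.612-fold (0.421 to 0.916), and Gpm6a, a neuronal-type membrane glycoprotein gene, 0.157-fold (0.109 to 0.224) and 0.346-fold (0.201 to 0.629).

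Fn1 stood at 981 CPM in Q150X 3dpMI, 583 in WT 3dpMI, 26.6 in Q150X homeostasis and 21.7 in WT homeostasis, and rested on 3 and 1 UMIs in the homeostasis libraries; its ratios were 36.8-fold (12.5 to 179) in Q150X and 26.8-fold (4.78 to 1064) in WT, where it was at least 6.49-fold with at least 3 rule genes, on 0 UMIs in homeostasis. It was higher in all other nuclei too, at 794, 420.4, 22.8 and 16.1 CPM. Egfl7, the gene of a protein secreted by endothelium, stood at 613 CPM in Q150X 3dpMI, 651 in WT 3dpMI, 159.8 in Q150X homeostasis and 152 in WT homeostasis, 3.83-fold (2.39 to 6.54) in Q150X and 4.28-fold (2.06 to 10.7) in WT. Unc5b, a netrin receptor gene, stood at 391 CPM in Q150X 3dpMI, 376 in WT 3dpMI, 97.7 in Q150X homeostasis and 65.1 in WT homeostasis, 4.0-fold (2.19 to 8.13) in Q150X and 5.77-fold (1.95 to 28.2) in WT. Stab1 was 2.27-fold (1.61 to 3.28) in Q150X and 4.32-fold (1.96 to 11.9) in WT, and Nrp2, the VEGF-C co-receptor gene, 1.52-fold (1.22 to 1.91) and 1.62-fold (1.14 to 2.40). Without nuclei holding macrophage markers Stab1 was 1.49-fold in Q150X and 5.56-fold in WT. Nts had 0 UMIs in both homeostasis libraries and was at least 3.01-fold higher after infarction in Q150X, set against the 3-UMI limit; in WT its 28.2 CPM after infarction lay under the 65.1 CPM that 0 UMIs in homeostasis allow, and no fold is given. Zbtb16 was 0.310-fold (0.255 to 0.378) and 0.229-fold (0.185 to 0.284), and the glucocorticoid-induced factor gene Klf9 0.319-fold (0.208 to 0.494) and 0.278-fold (0.164 to 0.493).

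Some genes stood differently in the genotypes over the same contrast, and these differences were not tested. Sema3a was 1.21-fold (0.975 to 1.52) in Q150X and 3.58-fold (2.12 to 6.59) in WT, the rule gene Ccl21a 0.667-fold (0.493 to 0.915) and 4.13-fold (1.38 to 20.3), and Erg 0.655-fold (0.455 to 0.963) and 1.89-fold (1.01 to 3.99), 3dpMI over homeostasis. The WT ratio of Ccl21a rests on 3 UMIs in homeostasis. Tbx1 was 4.78-fold (1.57 to 23.7) in Q150X and 1.10-fold (0.348 to 5.56) in WT, on 3 UMIs in each homeostasis library. With at least 3 rule genes it was 15.4-fold in Q150X, on still fewer UMIs in homeostasis. Cdh5, the VE-cadherin gene, was 1.34-fold (0.832 to 2.26) and 4.79-fold (1.61 to 23.5). Over the identity list outside the rule, 5 of 25 measured genes were at least 2-fold higher and 6 at most 0.5-fold in Q150X, with a median log2 ratio of -0.62. Over all genes these were 20.6%, 6.19% and 0.24. In WT 3 of 24 genes of the list were at least 2-fold higher and 4 at most 0.5-fold, with a median of -0.18, beside 17.4%, 8.35% and 0.06 over all genes. The genes of the list had a median of -0.66 in Q150X and 0.11 in WT in other endothelial nuclei, so the Q150X fall was not particular to lymphatic nuclei. Both WT homeostasis and Q150X homeostasis enter 2 of the 4 comparisons, as do the infarct libraries, so the ratios are not independent of each other.

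Cycling was seen in lymphatic nuclei of both infarct libraries. At least 5 of 31 proliferation genes were detected in 29 of 103 nuclei in Q150X 3dpMI, 28.2% (19.7 to 37.9), and 28 of 105 in WT 3dpMI, 26.7% (18.5 to 36.2), against 0 of 90 in Q150X homeostasis and 0 of 38 in WT homeostasis. In other endothelial nuclei the shares were 19.99% (18.4 to 21.7) in Q150X 3dpMI, 8.55% (7.64 to 9.52) in WT 3dpMI, 0.928% in Q150X homeostasis and 0.143% in WT homeostasis. A limit of 3 nuclei for the 0 counts allows shares of up to 3.33% in Q150X and 7.89% in WT homeostasis, and the Clopper-Pearson upper bounds are 4.02% and 9.25%. Because infarct nuclei were deeper, nuclei were also thinned to 500 UMIs; at least 2 of the genes were then found in 12.6% (6.89 to 20.6) of lymphatic nuclei in Q150X 3dpMI, 17.1% (10.5 to 25.7) in WT 3dpMI, 1.11% in Q150X homeostasis and 0% in WT homeostasis, and in 13%, 7.46%, 1.02% and 0.715% of other endothelial nuclei. The nuclei counted after thinning were those picked at full depth. Thinning therefore did not remove the effect of depth on which nuclei were picked. Cycling nuclei were deep, with a median of 7987 UMIs in Q150X 3dpMI and 7739 in WT 3dpMI, against 3688 and 3072 in the rest of the lymphatic nuclei. They held 44.3% and 49.3% of all lymphatic UMIs. Of nuclei with at least 3 rule genes, 27.7% and 28.0% were cycling.

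The proliferation list itself ran lower in Q150X 3dpMI lymphatic nuclei than in WT 3dpMI, with 20 of 27 measured genes lower, 3 of them at most 0.5-fold, and a median log2 ratio of -0.55. In other endothelial nuclei all 27 were higher in Q150X, with a median of 0.59. Without nuclei holding macrophage markers the lymphatic median was 0.15 over 20 genes, so its direction did not hold there. Mki67, the gene of the Ki-67 protein of cycling cells, stood at 189 CPM in Q150X 3dpMI and 248 in WT 3dpMI, 0.760-fold (0.584 to 0.987), and 1.06-fold with called doublets removed. Diaph3, a formin gene used in cell division, had 185 UMIs in 32 nuclei of Q150X 3dpMI, 197 in 27 nuclei of WT 3dpMI and 0 in homeostasis, at least 12.1-fold and at least 5.69-fold higher after infarction.

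**Figure D5:**
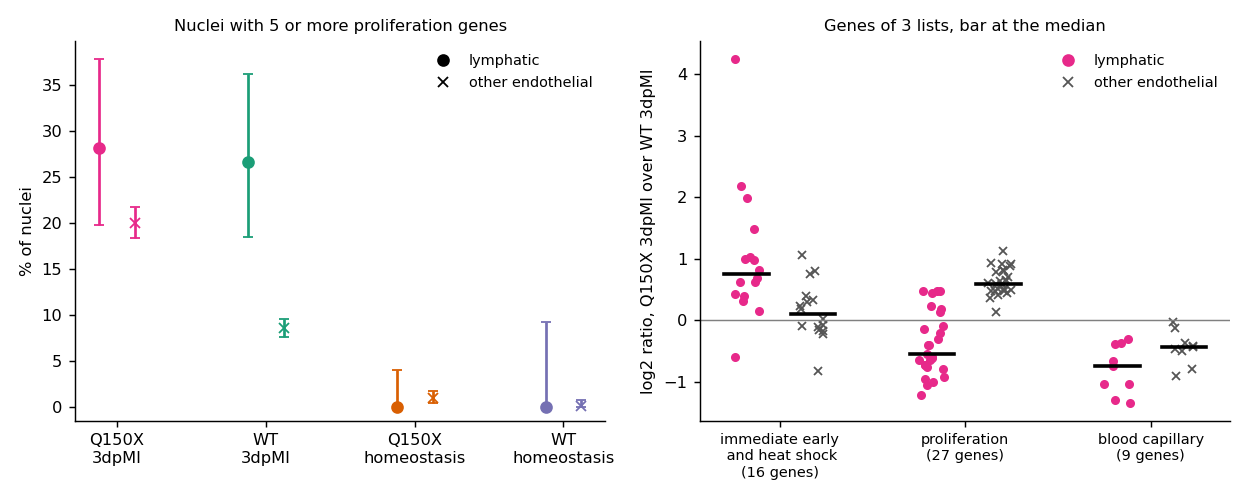
Percent of lymphatic and other endothelial nuclei with at least 5 of 31 proliferation genes in each library, with 95% Clopper-Pearson bars, beside the log2 ratio, Q150X over WT 3 days after infarction, of each gene of 3 lists, with a bar at the list's median. The lymphatic shares are 28.2% and 26.7% in the infarct libraries and 0% in homeostasis, and the proliferation list lies below 0 in lymphatic nuclei and above 0 in other endothelial nuclei.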

How the data were processed

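Single-nucleus RNA was measured in 4 libraries, 1 for each group, which the titles assign. The matrices the authors deposited hold whole UMI counts of 33954 genes per nucleus; their headers name Cell Ranger 7.1.0, and GRCm39 and Scanpy are named in the submitters' processing notes. Counts were used as deposited, with 32657625 UMIs in Q150X 3dpMI, 30413471 in WT 3dpMI, 9283645 in Q150X homeostasis and 5875965 in WT homeostasis. The quality limits removed 5, 8, 66 and 9 nuclei in this order.

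UMIs of the lymphatic nuclei were summed per library and divided by their total (scipy 1.17.1 and pandas 2.3.3 under Python 3.11.15). A ratio entered a count or a list median if the gene's UMIs in the pair of libraries reached 20; at least 2-fold or at most 0.5-fold counted as called, with no test, since each group has 1 library. Such a gene can pass through the library where it is high. Lymphatic and other endothelial nuclei were compared for genes with at least 40 UMIs in all, with 0.5 UMI added. Named genes were, for each comparison, the 6 at each end by the interval bound nearest to 1, leaving out mitochondrial, ribosomal, unnamed haemoglobin and some sex-linked genes and genes lower than in all other nuclei of the library where they were higher, plus the 6 rule genes and Vegfa, up to 3 genes at each end of each of 23 lists, and the 12 highest and 8 lowest against other endothelial nuclei. Members and lists were chosen with earlier results of these data known, and the genes of the lists that are described were chosen after their values were seen. Doublets were called with Scrublet in Scanpy 1.11.5 and used in an alternative only. The interval functions were tested on simulated data. PCR duplicates are collapsed by UMIs, and intervals and limits for a count of 0 cover counting error only.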

Additional observations from a re-analysis of the deposited data

Results flagged for a closer look

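None of the differences below was tested, since each group is 1 library. Only genes chosen for the text were searched. Each gene below had ratios on opposite sides of 1 under the same contrast in 2 settings, with 1 outside both counting intervals. For Q150X over WT, Angpt1 was 2.73-fold 3 days after infarction and 0.0682-fold in homeostasis, Ccbe1 3.77-fold and 0.0818-fold, and Csmd1 4.98-fold and 0.215-fold. All 3 rest on few UMIs in homeostasis: Angpt1 on 1 in Q150X and 6 in WT, Ccbe1 on 2 and 10, Csmd1 on 10 and 19. C1qtnf7 was 2.22-fold after infarction and 0.327-fold in homeostasis, Plxdc2 1.64-fold and 0.504-fold, and the transcription factor gene Zeb2 1.22-fold and 0.378-fold. The other way round, Hjurp was 0.691-fold after infarction and 11-fold in homeostasis, Srgap3 0.820-fold and 7.36-fold, and Pecam1 0.831-fold and 1.78-fold. Hjurp and Srgap3 had 1 and 2 UMIs in WT homeostasis. In nuclei with at least 3 rule genes Ccbe1 was 0.399-fold after infarction and 0.0566-fold in homeostasis, and Pecam1 1.10-fold and 1.75-fold. Neither gene then lay on opposite sides of 1. Angpt1 was 1.23-fold and 0.340-fold in those nuclei.

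For 3dpMI over homeostasis, Angpt1 was 9.83-fold in Q150X and 0.245-fold in WT, Ccbe1 6.39-fold and 0.139-fold, the rule gene Ccl21a 0.667-fold and 4.13-fold, Erg 0.655-fold and 1.89-fold, and Gphn 2.27-fold and 0.676-fold. With at least 3 rule genes Angpt1 was 3.22-fold in Q150X and 0.891-fold in WT, and Ccbe1 1.29-fold and 0.183-fold; the Q150X values then rest on 1 homeostasis UMI of each gene. The 2 contrasts share the same 4 libraries, so a gene can be named under both without being seen again in other samples. The proliferation list had a median log2 ratio, Q150X 3dpMI over WT 3dpMI, of -0.55 in lymphatic nuclei and 0.59 in other endothelial nuclei.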

How the results depend on the processing

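No paired analysis was possible because each group is 1 library. Of the alternatives run, 28 of 36 share ratios and 1615 of 1785 single gene values stayed within the counting interval of the reported value. Limits of 1.5 times the reported value held 45 of 50 percents of genes past 2-fold and 9 of 10 counts against other endothelial nuclei. Of list medians, 854 of 1013 stayed within a fixed distance on the log2 scale. Some alternatives could change little or nothing, which raises these counts. Leaving out cycling nuclei, for instance, left the homeostasis comparison as it was, since 0 lymphatic nuclei were cycling there. Shares depended on the denominator and on depth: Q150X over WT after infarction was 1.48 of endothelial nuclei and 1.87 when these were thinned to 500 UMIs. 3dpMI over homeostasis was 0.562 of endothelial nuclei, 0.524 thinned and 0.416 with both in Q150X, and 0.567, 0.878 and 0.420 in WT, where it was 1.32 of all nuclei. The percent of genes past 2-fold between genotypes was 12.7 with nuclei weighted equally, 13 with at least 10 UMIs and 3.53 with at least 50 after infarction, and 22.1 with at least 10 and 6.36 with at least 50 in homeostasis. With at least 1000 UMIs per nucleus 95 genes, not 143, were lower than in other endothelial nuclei in all 4 libraries.

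Gene ratios whose interval excluded 1, and list medians of at least 0.5 in size on the log2 scale, reversed as follows, and the cause was not tested; a ratio left with 0 UMIs in 1 library is a bound and was not counted. For Q150X over WT after infarction, at least 3 rule genes gave Ccbe1 0.399, Cdh2 0.246, Il1rapl1 0.532 and Pecam1 1.10; leaving out nuclei with macrophage markers gave Iigp1 1.89, Mki67 1.10 and a proliferation median of 0.146; doublet removal gave Mki67 1.06; and leaving out cycling nuclei gave Pecam1 1.01. In homeostasis, leaving out nuclei with macrophage markers gave a blood capillary median of 0.0137, and leaving out those with fibroblast markers too gave Cd36 1.24, Mmrn1 0.988, Sdc2 1.33 and Zeb2 1.33. For WT 3dpMI over homeostasis the fatty acid median was 0.617 without macrophage-marker nuclei and 0.227 with nuclei weighted equally, the glycolysis median -0.0400 with 1000 UMIs, -0.0479 with 3 rule genes and -0.0192 with at least 10 UMIs, and Cd36 1.68 without macrophage or fibroblast markers. In Q150X the chemokine median was -0.0829 without macrophage-marker nuclei and Ccl21a 1.07 with 1000 UMIs. The fibroblast alternative was not run for comparisons with Q150X 3dpMI, where it left 1 nucleus. Leaving out macrophage-marker or cycling nuclei and a minimum of 5 expected UMIs were chosen after seeing the data.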
